A study of Mus musculus with 2 samples.

Results

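The SOCS family of mouse holds 8 genes, Cish and Socs1 to Socs7, and its mRNA was followed in macrophages before and after interleukin-4 (IL-4). The members were taken by name, through their NCBI gene numbers, from 15623 genes listed in 1 or both of the deposited tables. RNA had been sequenced from peritoneal macrophages that thioglycolate had drawn into the cavity of wild type C57BL/6 mice, aged 6–8 weeks per the study's methods, as 2 libraries. The NT library came from nontreated cells, and the IL-4 library from cells given mouse IL-4 for 6 h. In both, cells lavaged 4 to 5 days after 4% thioglycolate had adhered for 4 h, been washed and been starved in 0.5% serum. One label field gives bone marrow as the tissue, whereas the source and the protocol give peritoneal macrophages. The number of mice behind each library was not given in the sources used here.

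SOCS proteins are the classical brakes on cytokine signalling. Cytokine receptors activate Janus kinases (JAKs), which phosphorylate STAT transcription factors, and the STATs in turn induce several SOCS genes. Each SOCS protein carries an SH2 domain, which binds phosphotyrosine on its target, and a C-terminal SOCS box, which recruits Elongin B, Elongin C and Cullin-5 into a ubiquitin ligase. SOCS1 and SOCS3 also block the kinase directly. IL-4 acts through Il4ra, JAKs and Stat6, the pathway of alternative (M2) macrophage polarization, and the question for this family was which of its members accompanied that response.

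Depth was similar, with 11035641 expected counts in NT, where 14842 genes were listed, and 11250099 in IL-4, where 14717 were. The expected count is the read number that RSEM assigned to a gene, and FPKM divides it by transcript length and by sequencing depth. With 1 library per group there was no replicate error, so every interval below is an exact 95% interval for counting error only. Each p-value concerns the reads of these libraries and not the conditions. Reads copied by PCR were not told apart by molecular identifiers, so such intervals are likely too narrow. The identity of the cells was checked against 8 macrophage markers, among them Adgre1, Csf1r and Lyz2, which were all present. They summed to 17095 CPM (expected counts scaled to the library total) in NT and 17408 in IL-4, most of it Lyz2. By the calls defined below, Csf1r was higher with IL-4 (6236 and 11896 counts), Cd14 was lower (1219 and 591 counts) and 6 were not called. A further 3 markers of resident peritoneal macrophages summed to 7.97 CPM in NT and 11 in IL-4. For comparison, 32 markers of 7 other lineages summed to 37.3 CPM in NT and 29.0 in IL-4, of which 9 and 10 were at 0. Their summed level was thus no higher with IL-4. In bulk RNA, a change in the number of cells that express a gene and a change in RNA per cell cannot be told apart.

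Upon IL-4 stimulation, 3 of the 8 members, Cish, Socs1 and Socs2, were called higher and none was called lower. Calls required a log2 ratio of IL-4 over NT of 0.75 or more in size, an exact p-value no higher than 0.05 and, after Benjamini-Hochberg (BH) adjustment, a value no higher than 0.5. These are the cutoffs that the study's results section states for its own IL-4 comparison. Of 15593 genes tested, 4.07% were called higher and 6.28% lower. All 8 members had reads, although Cish entered the test through the IL-4 library alone. The median log2 ratio of the family was 0.28, compared with -0.03 over all genes tested, and the members ranged from -0.63 for Socs7 to the very large rise of Cish. The family therefore split into a group of 3 that was scarce in NT cells and higher with IL-4, and a group of 5 whose log2 ratios lay between -0.63 and 0.34.

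**Figure D1:**
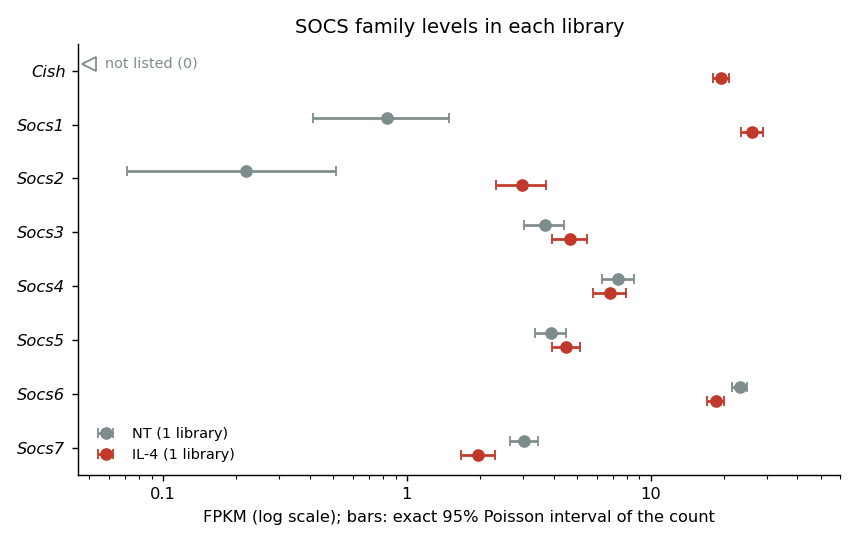
FPKM of the 8 members (log axis) in the NT library (grey) and the IL-4 library (red), with exact 95% Poisson intervals of the count. Cish was not listed in NT and had 19.4 FPKM in IL-4, whereas the intervals of Socs3, Socs4 and Socs5 overlapped between the libraries.

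Cish (gene 12700, chromosome 9, 107296659 to 107302784, GRCm38) encodes CIS, the founding member of the family, which binds cytokine receptors at the sites where STAT5 docks and dampens STAT5 activation. It had 0 expected counts in NT and 662 in IL-4, the latter corresponding to 19.4 FPKM. No read was thus seen before stimulation at a depth where 3 counts would equal 0.272 CPM, while after stimulation the gene exceeded 76.9% of the genes listed in that library. Against that floor of 3 counts, Cish was at least 216-fold higher in the IL-4 library, a log2 ratio of 7.76. The exact 95% interval of the ratio, which allows up to 3.69 counts in NT, started lower, at 7.46, and had no upper end. The difference was far larger than counting error (exact p = 5.92e-197, BH-adjusted 9.72e-195). Cish had the highest log2 ratio of 9925 genes with at least 50 counts in the library with more, although the size of a ratio against 0 depends on the constant added. It entered that set through the IL-4 library alone, so a high place was partly built in. It also had the highest count among the 781 genes listed in the IL-4 library but not in NT, of which 9 reached 50 counts.

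The genes nearest to Cish in the plane of NT and IL-4 abundance were Gm2026 (0 and 418.45 counts), Fam177a (1.11 and 323.54 counts) and Adipoq (0 and 139 counts). The counts of Gm2026 and Fam177a are not whole, so reads were divided between them and other genes and their separate values are uncertain. The count of Cish was whole, and no other annotated gene overlapped it. Among the members, Socs2 and Socs5 alone were overlapped, each by a long noncoding RNA gene (Gm33230 and Gm30510) with 0 counts in both libraries.

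Socs1 (gene 12703, chromosome 16, 10783808 to 10785536) encodes an inhibitor that sits in the catalytic cleft of JAKs and restrains interferon-γ and IL-4 signalling. It had 11 counts in NT (interval 5.49 to 19.7) and 355 in IL-4 (interval 319 to 393.9). In FPKM it went from 0.83 to 26.06, so a gene that exceeded only 27.5% of the listed genes in NT exceeded 81.8% of them after IL-4. The log2 ratio was 4.92, with an interval from 4.13 to 6.00, or 30.3-fold (exact p = 1.26e-88, BH-adjusted 8.91e-87). Socs1 stood at place 20 of the 9925 genes with at least 50 counts in the library with more. With 11 counts in NT, it too entered that set only through the IL-4 library, so a high place was partly built in. Its nearest genes in abundance were Plekhf1 (10 and 301 counts), Batf3 (9 and 345 counts) and Serpina3h (14.52 and 405.73 counts). Batf3 encodes a transcription factor of the AP-1 type.

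The 250 bases before the start of Socs1 and of Socs3 are shown to set a member that was called beside one that was not. They come from RefSeq (GRCm38.p6) and lie on the minus strand at chr16:10785537-10785786 and chr11:117969367-117969616. Each precedes the start that the RefSeq promoter table gives. The Socs3 window lies inside the annotated span of its gene, since that span holds transcripts that start upstream. Capitals in Socs1 mark the IRF-type motif GAAANNGAAA, and capitals in Socs3 mark the STAT motif TTCNNNGAA.
Socs1: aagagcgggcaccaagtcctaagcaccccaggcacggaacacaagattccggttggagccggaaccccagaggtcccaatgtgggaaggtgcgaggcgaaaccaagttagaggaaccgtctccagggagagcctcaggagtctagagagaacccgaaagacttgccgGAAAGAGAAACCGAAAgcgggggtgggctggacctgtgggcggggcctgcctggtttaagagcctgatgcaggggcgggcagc
Socs3: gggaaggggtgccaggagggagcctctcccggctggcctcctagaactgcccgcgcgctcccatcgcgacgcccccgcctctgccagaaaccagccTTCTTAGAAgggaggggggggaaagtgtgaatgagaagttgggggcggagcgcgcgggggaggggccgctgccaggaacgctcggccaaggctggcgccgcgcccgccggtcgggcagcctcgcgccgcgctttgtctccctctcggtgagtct

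STAT dimers bind the palindrome TTCNNNGAA, and Stat6 also binds the form with a wider spacer, TTCNNNNGAA. Of the 8 members, 4 (Cish, Socs1, Socs3 and Socs4) had a window to search. The only match was TTCTTAGAA in Socs3, which began 154 bases before the start. Among 32851 windows of the same length, 7.02% held the first form and 5.85% the second. The IRF-type motif was chosen after the Socs1 window had been read, and it was sought on both strands. Socs1 held 2 overlapping matches, GAAAGAGAAA and GAAACCGAAA, which began 83 and 77 bases before the start. At least 1 match was present in 2.98% of all windows and at least 2 in 0.18%. The windows of Cish, Socs3 and Socs4 held none of it. The Cish window, which is not printed, lies wholly within an exon of a GENCODE transcript that starts further upstream, and 77 bases of the Socs3 window lie in an exon of a noncoding GENCODE transcript, so neither covers every start of its gene. A match is a description of letters and not of binding, which was not measured here.

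Socs2 (gene 216233, chromosome 10, 95383903 to 95417321) encodes the regulator of growth hormone signalling whose loss causes gigantism in mice. It had 5 counts in NT (interval 1.62 to 11.7) and 74 in IL-4 (interval 58.1 to 92.9), or 0.22 and 2.97 FPKM. Even after IL-4 it exceeded only 42.2% of the listed genes, which set it apart from Cish and Socs1. The log2 ratio was 3.73, with a wide interval from 2.57 to 5.52 (exact p = 1.55e-16, BH-adjusted 2.24e-15). The intervals of the ratios of Socs1 and Socs2 overlapped, and the difference between these ratios was not tested. Flywch2 (5 and 58 counts), Ksr2 (4 and 85 counts) and Hebp2 (6 and 59 counts) were nearest to it. Of the 8 members, Socs2 had the most transcripts, 4, and its mean length weighted over them was 2074 bases in NT and 2213 in IL-4.

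**Figure D2:**
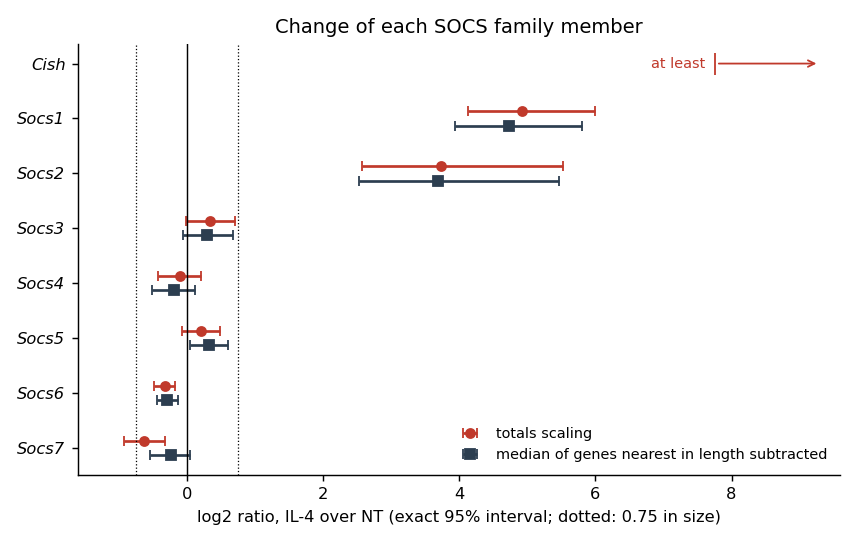
Log2 ratio of IL-4 over NT for 7 members with their exact 95% intervals, from counts scaled to the library totals (red circles) and after subtracting the median of the 200 genes nearest in transcript length (dark squares). Dotted lines mark 0.75 in size, and the arrow for Cish, drawn in place of an interval, starts at 7.76, its log2 ratio against a floor of 3 counts in NT. Socs1 and Socs2 lay far to the right under either treatment, and Socs7 moved from -0.63 to -0.24.

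Socs3 (gene 12702, chromosome 11, 117966079 to 117970336), the inhibitor that binds gp130 and the leptin and G-CSF receptors, was not called. It had 112 counts in NT and 145 in IL-4, or 3.68 and 4.68 FPKM. The log2 ratio was 0.34, with an interval from -0.02 to 0.71 (exact p = 0.0652, BH-adjusted 0.163). An increase of up to 0.71 on the log2 scale thus remained within counting error, and one of the size seen for Socs1 did not. Socs1 and Socs3 are often read against each other in macrophages, and their FPKM ratio (Socs1 over Socs3) was 0.226 in NT and 5.57 in IL-4. From the counts, that ratio was 24.8-fold higher in the IL-4 library (exact interval 12.8 to 52.6), a value that does not depend on how the libraries were scaled. The ratio of Socs2 over Socs3 was 11.4-fold higher (4.44 to 37.3). Both pairs were chosen after the levels were seen.

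The remaining members form a subgroup with long N-terminal regions, which has been linked to growth factor receptor signalling, and none of them was called. Socs4 (gene 67296, chromosome 14, 47276920 to 47296102) and Socs5 (gene 56468, chromosome 17, 87107278 to 87137647) encode close relatives that act on the EGF receptor. Socs4 had 175 counts in NT and 165 in IL-4, or 7.35 and 6.80 FPKM, a log2 ratio of -0.11 (interval -0.43 to 0.20, exact p = 0.506). Socs5 had 194 and 229 counts, or 3.90 and 4.52 FPKM, a log2 ratio of 0.21 (interval -0.07 to 0.49, exact p = 0.145). Neither difference exceeded counting error.

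Socs6 (gene 54607, chromosome 18, 88865169 to 88894364), whose product binds KIT and insulin receptor complexes, was the most abundant member in NT cells. It had 827 counts in NT and 672 in IL-4, or 23.19 and 18.47 FPKM. Its log2 ratio of -0.33 (interval -0.48 to -0.18, exact p = 1.34e-05, BH-adjusted 7.76e-05) excluded 0 but lay within the threshold of 0.75. Socs7 (gene 192157, chromosome 11, 97362292 to 97398542), whose product binds the adaptor NCK, had 238 and 157 counts, or 3.03 and 1.96 FPKM. Its log2 ratio of -0.63 (interval -0.93 to -0.33, exact p = 2.35e-05, BH-adjusted 0.000131) likewise excluded 0 and was not called. The study's methods section gives other limits, a fold change over 1.5 and an adjusted value no higher than 0.05. Under those, and not under the limits stated for the IL-4 comparison, Socs7 was called lower, the only member to be so.

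Transcript length moved with the ratio of the libraries. Across 8461 genes with at least 200 reads, the Spearman correlation of length and log2 ratio was -0.45, given as a description since all genes shared the same 2 libraries. Socs7 has the longest transcript of the family, 7015 bases, and the 200 genes nearest in length had a median log2 ratio of -0.38. With that median subtracted, Socs7 was at -0.24 and its interval, -0.54 to 0.05, included 0. Socs6, of 3210 bases, stayed at -0.29 (interval -0.44 to -0.14). Socs5, of 4460 bases, went to 0.32 with an interval from 0.04 to 0.60. The ratios of Socs1 and Socs2 were 4.73 and 3.68 after the same step.

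**Figure D3:**
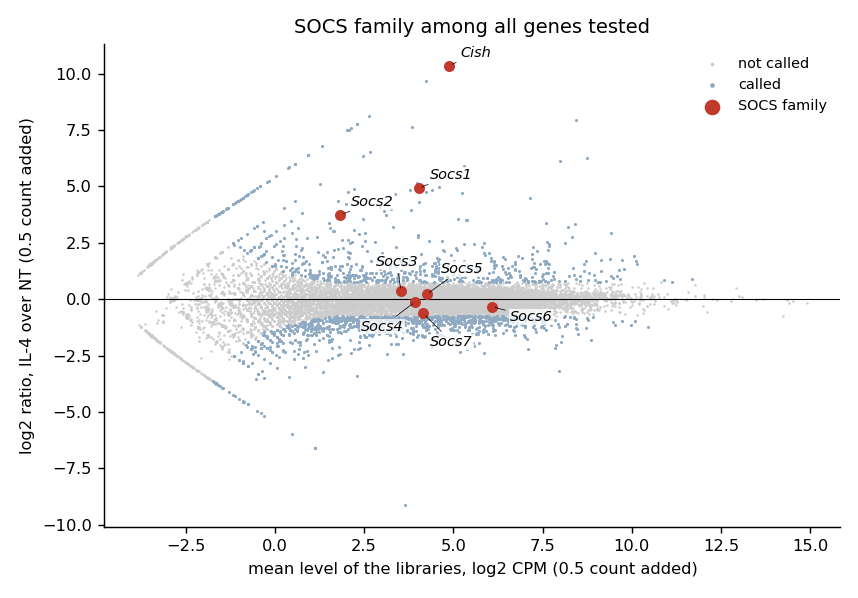
Log2 ratio of IL-4 over NT against the mean level of the libraries for 15593 genes, with 0.5 count added in each. Blue points were called, grey points were not, and red points are the 8 members. Cish is at the top of the plot, where its height depends on the added constant, Socs1 and Socs2 lie among the called genes above 3, and the other members lie in the grey band around 0.

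The order of the members by FPKM differed between the libraries. In NT cells Socs6 came first (23.19 FPKM), followed by Socs4 (7.35), Socs5 (3.90), Socs3 (3.68), Socs7 (3.03), Socs1 (0.83), Socs2 (0.22) and Cish (0). Neighbours whose 95% intervals overlapped were Socs5 and Socs3, Socs3 and Socs7, and Socs1 and Socs2. In IL-4 cells Socs1 came first (26.06), followed by Cish (19.4), Socs6 (18.47), Socs4 (6.80), Socs3 (4.68), Socs5 (4.52), Socs2 (2.97) and Socs7 (1.96). Here Cish and Socs6 overlapped, as did Socs3 and Socs5. Socs6 had 27.9 times the FPKM of Socs1 in NT and 0.709 times in IL-4.

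Summed over the 8 members, the family had 42.2 FPKM in NT and 84.86 in IL-4. In counts, which weight long transcripts more, it had 1562 and 2459, a log2 ratio of 0.63 (interval 0.53 to 0.72). Cish, Socs1 and Socs2 together made up 2.49% of the FPKM of the family in NT and 57.1% in IL-4. Socs1 alone went from 1.97% to 30.7% and Cish from 0% to 22.9%, whereas Socs6 went from 55% to 21.8%. Socs4 to Socs7 together had 1434 counts in NT and 1223 in IL-4, a log2 ratio of -0.26 (interval -0.37 to -0.15), so the larger total of the family did not come from them.

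**Figure D4:**
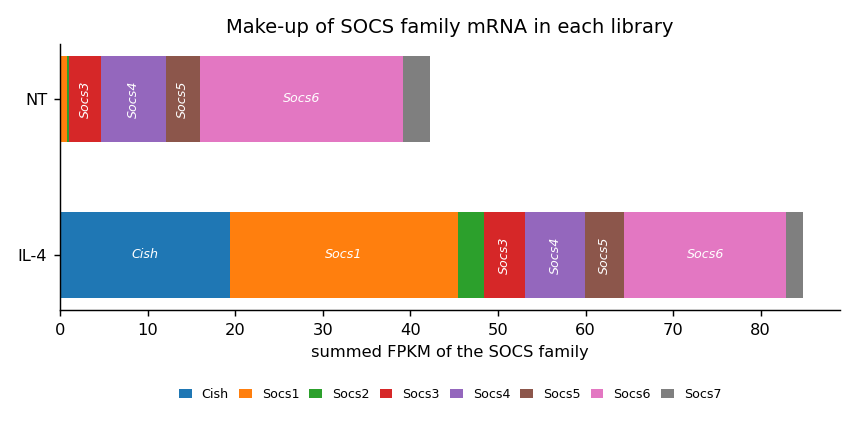
Summed FPKM of the SOCS family in the NT and IL-4 libraries, with each member as a coloured segment. The total was 42.2 FPKM in NT, most of it Socs6, and 84.86 in IL-4, where Socs1 and Cish were the first and second largest segments.

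To place these members in their pathway, lists of interacting genes were examined. The median log2 ratio of 8 IL-4 and IL-13 receptor chains and Janus kinases was -0.05. Of these 8, 1 was called higher and none lower, against 4.07% and 6.28% of all genes tested. That gene was Jak2, a kinase inhibited by SOCS1 and SOCS3, which went from 568 to 1509 counts (log2 ratio 1.38, interval 1.24 to 1.52). Il4ra, the signalling chain of the IL-4 receptor, had 558 and 720 counts (log2 ratio 0.34), and the shared chain Il2rg was the most abundant of the list, with 124.32 and 121.28 FPKM. None of the 7 STAT factors was called, and their median was -0.19. Stat6 was the most abundant of these, with 69.68 and 56.02 FPKM, and Stat5a and Stat5b had log2 ratios of -0.14 and -0.19. Of the 2 IRS adaptors, which SOCS1 and SOCS3 can target for degradation, Irs2 was called lower, from 152 to 64 counts (log2 ratio -1.27, interval -1.72 to -0.85). Irs1 had 5 and 2 counts and could hardly be measured.

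None of 13 other listed brakes on the pathway was called, against 4.07% higher and 6.28% lower of all genes tested. At those shares, a count of 0 in a list this short does not set it apart. The list of 13 held PIAS proteins, phosphatases, adaptors and CBL ligases and had a median log2 ratio of -0.06. Its most abundant gene was Ptpn6, which encodes the phosphatase SHP-1 and had 113.14 FPKM in NT and 79.18 in IL-4 (log2 ratio -0.51). The highest log2 ratio was that of Ptpn2, 0.68, which encodes the phosphatase TC-PTP, and next came Cblb with 0.63. Both passed under the limits of the study's methods. Under the limits used here, Cblb was called higher with the length trend subtracted (log2 ratio 0.90), and Ptpn2 with 0.1 added to FPKM. Compared with Cish, Socs1 and Socs2, these genes were already present in NT cells, at 11.79 FPKM for Ptpn2 and 22.9 for Cblb.

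The ligase partners of the SOCS box were present in both libraries. None of 7 was called, against 4.07% higher and 6.28% lower of all genes tested. Their median log2 ratio was 0.03 and they ranged from -0.29 for Arih2 to 0.45 for Rnf7. Cul5, the scaffold of the ligase, had 357 counts in each library. Nedd8, the ubiquitin-like modifier that activates cullins, was the most abundant, with 193.4 and 197.01 FPKM. Of 27 other genes that encode a SOCS box, Neurl2 and members of the ASB, SPSB, WSB and RAB40 families, 21 had reads. Of these 21, 7 had fewer than 10 counts in either library and thus little room for a call. None was called higher and 2 were called lower, against 4.07% and 6.28% of all genes tested. Spsb4 went from 347 to 199 counts (log2 ratio -0.83) and Rab40c from 276 to 163 (log2 ratio -0.79). Rab40c lost its call with TMM scaling and with 1 added to FPKM. Wsb2 was the most abundant of this list, with 180.61 and 219.21 FPKM, and was not called (log2 ratio 0.28). Spsb1, with a log2 ratio of 0.75 that rounds up to the limit, was not called, but was called higher with TMM and with median-of-ratios scaling. The median of the list, with the 7 genes of few counts included, was 0.10.

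**Figure D5:**
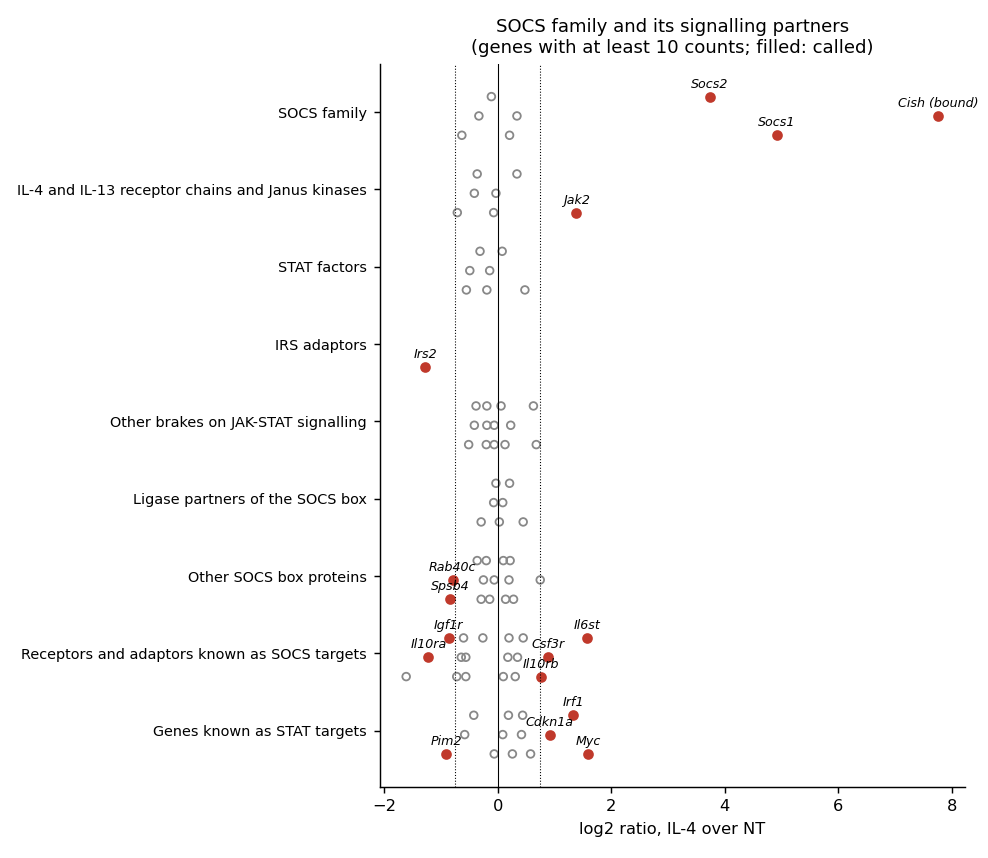
Log2 ratio of IL-4 over NT for the SOCS family and 8 lists of signalling genes, each point a gene with at least 10 counts in the library with more, filled and named where called. Dotted lines mark 0.75 in size, and Cish is drawn at 7.76, its log2 ratio against a floor of 3 counts in NT. The called genes of the 8 lists lay between -1.27 and 1.59, left of Socs2 at 3.73.

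Of 23 receptors and adaptors that SOCS proteins act on, 3 were called higher and 2 lower, against 4.07% and 6.28% of all genes tested. The other 18 were not called, and 5 of them had fewer than 10 counts in either library. The median log2 ratio was -0.26. Il6st, which encodes gp130, the docking receptor of SOCS3, went from 1133 to 3434 counts (log2 ratio 1.57, interval 1.47 to 1.67). Csf3r, the G-CSF receptor and also a target of SOCS3, went from 1758.13 to 3290.96 counts (log2 ratio 0.88). Il10rb, the most abundant of the list, went from 209.58 to 355.23 FPKM (log2 ratio 0.76), and lost its call when the length trend was subtracted or when the 100 most abundant genes were left out of the totals. Il10ra, its partner in the IL-10 receptor, was lower, from 664 to 291 counts (log2 ratio -1.22). Igf1r was called lower, from 149.07 to 83.27 counts (log2 ratio -0.86), but was at -0.29 and no longer called with the length trend subtracted. Csf2rb, the receptor chain through which GM-CSF activates STAT5 and on which CIS can act, had 142.08 and 162.99 FPKM (log2 ratio 0.20) and was not called.

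Among 14 other genes known as STAT targets, 3 were called higher and 1 lower, against 4.07% and 6.28% of all genes tested. The median log2 ratio was 0.23. Myc went from 102 to 313 counts (log2 ratio 1.59, interval 1.26 to 1.93), Irf1 from 526 to 1352.96 (log2 ratio 1.33) and Cdkn1a from 465 to 900 (log2 ratio 0.92). Irf1 encodes an interferon regulatory factor. Pim2, a survival kinase, was called lower, from 65 to 35 counts (log2 ratio -0.91), but not with 1 added to FPKM. Junb was the most abundant of the list, with 63.01 and 75.61 FPKM. Pim1, a STAT5 target that often accompanies Cish, had 803 and 1097 counts (log2 ratio 0.42) and was not called.

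The calls differed in how much variation between animals they would bear. When the biological coefficient of variation was set to 0.4 in the edgeR exact test, Cish, Socs1 and Socs2 kept their calls, with BH-adjusted values of 2.63e-08, 0.00136 and 0.126. With the coefficient at 0.4, 65 of all genes tested were called higher and 8 lower, and the 13 called genes of the other lists lost their calls. At 0.2, Spsb4, Rab40c, Csf3r, Il10rb, Igf1r, Pim2 and Cdkn1a had already lost theirs. The coefficient was assumed and could not be estimated from 1 library per group.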

How the data were processed

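Reads were mapped by the authors to GRCm38/mm10 with Bowtie and quantified with RSEM, against RefSeq transcripts by the accessions in the tables; the versions were not given in the sources used here. The deposited expected counts are not scaled for depth. The FPKM values, also made by the authors, are scaled for transcript length and depth, with 0.01 the lowest listed, and a gene absent from a table was set to 0. Another deposited column gives the length weighted over transcripts. Symbols and coordinates came from RefSeq (GRCm38.p6), which matched 15587 of 15623 genes.

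Log2 ratios were taken from counts scaled to the library totals with 0.5 count added. Rounded counts of 15593 genes (30 rounded to 0 in both libraries) were compared by a two-sided exact conditional binomial test, doubling the smaller tail, with BH adjustment over all of them. Intervals are Clopper-Pearson for ratios and Poisson for counts and FPKM. The procedure was run on simulated Poisson counts without variation between animals, with changes set only in genes expecting at least 50 counts in NT. It therefore could not show how calls hold under such variation, or at the low NT counts of Cish, Socs1 and Socs2. The members, the lists and the motifs were chosen with earlier results of these data known. Named genes are the members, the called and the most abundant genes of each list, the 3 genes nearest to each called member among those with at least 50 counts, and a few others chosen after their values were seen. There were 13 alternatives: other scalings (edgeR 4.0.16 TMM, DESeq2 1.42.0), constants, filters and thresholds, an assumed variation in edgeR, and subtraction of a length trend (median of the 200 nearest genes with at least 200 reads). Python 3.11.15, scipy 1.17.1 and R 4.3.3 were used.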

Additional observations from a re-analysis of the deposited data

How the results depend on the processing

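No paired analysis was possible because NT and IL-4 are represented by 1 library each. All 13 alternatives were run on the members, giving 104 comparisons. The direction of every member held wherever the log2 ratio was computed anew, with other scalings, other constants or the length trend subtracted. Of these, only the length trend could have reversed a direction. The added constants shrink these ratios without turning them. The other scalings shifted ratios by less than the smallest member ratio in size, -0.11 for Socs4. The filter, the thresholds and the assumed variation left every log2 ratio unchanged, so they could not test direction either. Members not called had ratios too small to gain a call under the filter, the stricter threshold or the assumed variation. With those comparisons included, 103 of the 104 kept their side of the threshold. The exception was Socs7, whose log2 ratio of -0.63 passed under the limits in the study's methods (fold change over 1.5, adjusted value no higher than 0.05), which raised the members called lower from 0 to 1. Cish, Socs1 and Socs2 were called throughout, although FPKM with 1 added gave them ratios of 4.35, 3.89 and 1.70, since that constant shrinks low values. The other scalings shifted every log2 ratio by at most 0.037.

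Over all genes, 635 were called higher and 979 lower. These counts were 391 and 399 with 1 added to FPKM, 408 and 476 for log2 ratios of 1 or more in size with adjusted values no higher than 0.05, 390 and 423 where the coefficient of variation was assumed to be 0.2, and 65 and 8 where it was 0.4. Depth limits Socs2, with 5 counts in NT, and the ratio of Cish, which has only a lower bound.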
